A study of Rattus norvegicus with 8 samples.

Results

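Chemokines, cytokines and their receptors were examined in the enamel organ of the rat incisor at the secretory stage and at the maturation stage. The members are the probes whose array symbol names a chemokine ligand, a chemokine receptor, an interleukin, an interleukin receptor or inhibitor, a colony stimulating factor, an interferon or a receptor of these, together with Tnf, Lif, Osm and Mif. By this rule 122 probes for 115 genes were found among the 22523 probes for 21557 genes on the array. Genes of these families whose symbols do not follow the pattern, such as Osmr and Cmkor1, are not members.

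Each of 4 male Wistar rats (Wistar Hannover in the methods of the study), 4 weeks old and with no treatment named, gave 1 secretory-stage and 1 maturation-stage sample, so the 8 arrays form 2 groups of 4 from the same animals. The enamel organ is the epithelium that builds enamel. Its ameloblasts secrete the enamel matrix in the secretory stage, and in the maturation stage they take the matrix away while mineral replaces it. Tissue was taken from the enamel side of freeze-dried incisors, and no sorting of cells is named, so the samples hold ameloblasts together with other cells found there. In such bulk samples, fewer cells of a type and less RNA per cell cannot be told apart. In GEO, replicates 2 to 4 of the maturation stage carry a source name that says secretory stage, which disagrees with their titles, descriptions and tissue labels. All 8 arrays correlated more closely with arrays of the stage in their titles (lowest r = 0.990) than with arrays of the other stage (highest r = 0.949). The deposited signals summed to 11881691 to 12046793 on the secretory-stage arrays and to 13355073 to 16122665 on the maturation-stage arrays. The ameloblast markers called by the rule given below followed the labels. Enam, an enamel matrix protein, had a mean log2 signal of 11.98 in the secretory and 7.0 in the maturation stage. Klk4, a matrix-degrading protease, had 5.74 and 13.31. Of 4 secretory ameloblast markers on the array, 2 were called lower, and all 3 maturation ameloblast markers were called higher. Ambn (14.56 and 14.20) and Amelx (14.94 and 14.41) were not called and stayed bright in the maturation stage. Enam was less depleted in maturation replicates 1 and 4 (9.08 and 8.22) than in replicates 2 and 3 (5.17 and 5.53).

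Chemokines are small secreted proteins that draw cells along a gradient through receptors coupled to G proteins. Interleukins, interferons and colony stimulating factors act on neighbouring cells mainly through receptors that engage JAK kinases and STAT transcription factors, while the IL-1 receptor family works through the adaptor MYD88 and NF-kB. Both systems are restrained by decoy receptors, soluble binding proteins and receptor antagonists, and in teeth they are best known from the recruitment of osteoclast precursors that clear the eruption path.

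Of the 122 member probes, 14 rose from the secretory to the maturation stage and 1 fell, where a probe was called when its limma adjusted p was below 0.05 and its fold change at least 1.8. The members called made up 12.3% of the members, beside 7.75% of all probes on the array called in either direction. In the maturation direction this was 11.5% of members beside 4.6% of all probes, and in the secretory direction 0.820% beside 3.15%. These shares depend on the processing. Without background correction 5 of the 122 members were called, all higher, beside 528 of the 22523 probes called higher and 399 lower. The share of members called in either direction was then close to that of all probes. The median log2 fold change was 0.07 over the members and -0.01 over all probes. The largest rises were those of Ccl19, Il1rl1 and Cx3cl1, at 24.3-fold, 21.7-fold and 15.5-fold, and the single fall was that of Il1r2, the decoy receptor of IL-1, at 2.53-fold. Ccl19 was detected on only 2 of the 4 secretory-stage arrays, and the order of the 3 rises depends on the processing: without background correction the log2 fold changes were 3.53 for Cx3cl1, 3.39 for Il1rl1 and 2.94 for Ccl19.

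At an adjusted p below 0.05 without the fold threshold, 34 members were higher in the maturation stage (27.9%) beside 12.8% of all probes, and 2 were lower (1.64%) beside 14.0% of all probes. The number of lower members depends on the scaling. At an unadjusted limma p below 0.05, 4 were lower in the reported values and 19 with median scaling. The 4 maturation values lay entirely above the 4 secretory values for 33 members (27.0%) beside 13.1% of all probes, and entirely below them for 2 members (1.64%) beside 14.6%. Signals here are normalized log2 values to which an offset of 16 had been added before taking the log, which understates the fold change of dim probes, and levels were not compared between probes. Many members were too dim to compare between stages. The detection p-value, which sets a probe against the negative control beads of its array, was below 0.05 on all 8 arrays for 34 member probes and on all 4 arrays of at least 1 stage for 49 (40.2%, beside 46.8% of all probes). A further 28 were detected on some arrays, and 45 on none (36.9%, beside 40.0%). Of the members, 14 were detected on maturation-stage arrays and on no secretory-stage array (11.5%, beside 5.53% of all probes), and 2 the other way round (1.64%, beside 3.27%).

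**Figure D1:**
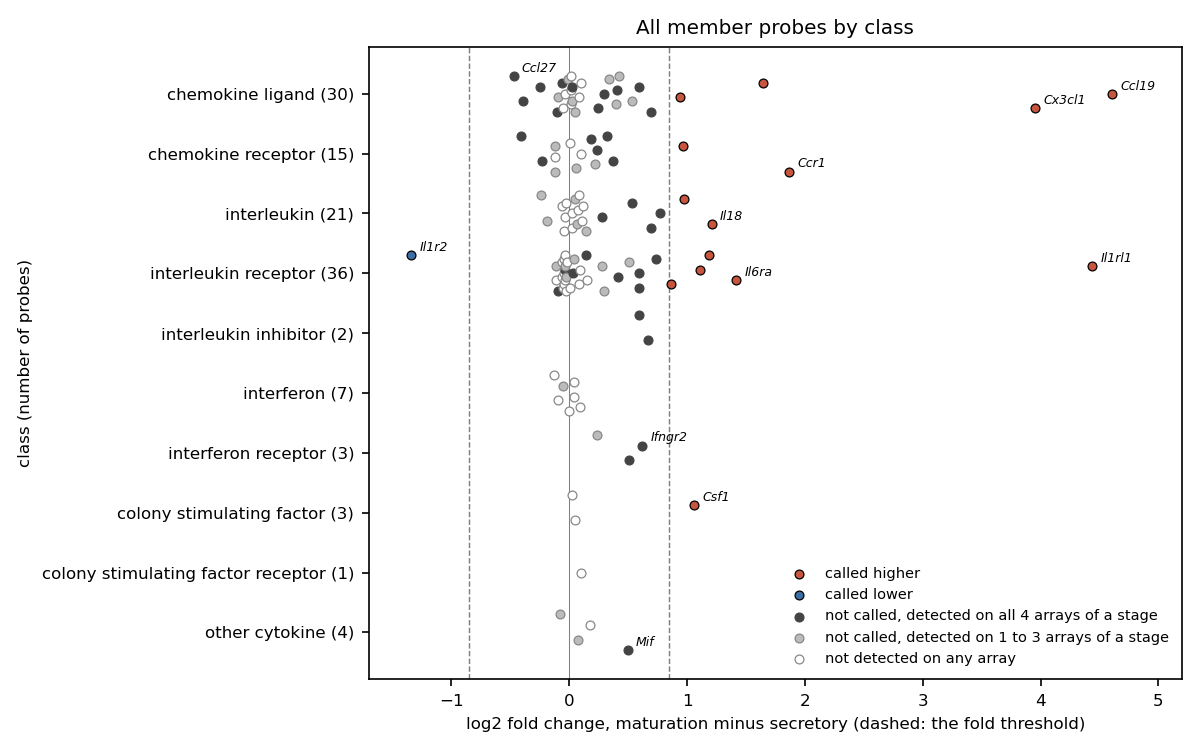
Log2 fold change (maturation minus secretory, x axis) of all 122 member probes, 1 point each, in rows by class, coloured by the call and by detection. The 14 probes called higher lie to the right of the dashed fold threshold, Ccl19, Il1rl1 and Cx3cl1 far from the others, and Il1r2 is the only probe called lower.

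The sequences just upstream of the RefSeq starts of the 3 genes with the largest rises are shown, because these 3 genes moved furthest, and the last 100 bases of Ccl6 and Il1b are added because, with Cx3cl1, they hold the letters TATAAA in the direction of the gene near the start. They are taken from RefSeq on the GRCr8 assembly and written 5′ to 3′ on the strand of the gene, in lower case, and capitals mark TATAAA or, where it lies on the opposite strand, its reverse complement. Ccl19 (chr5:61761165-61761414, minus strand), Cx3cl1 (chr19:10242821-10243070, minus strand) and Il1rl1 (chr9:50203388-50203637, plus strand) are given with 250 bases, and Ccl6 (chr10:68883367-68883466, minus strand) and Il1b (chr3:137036582-137036681, minus strand) with 100.
Ccl19: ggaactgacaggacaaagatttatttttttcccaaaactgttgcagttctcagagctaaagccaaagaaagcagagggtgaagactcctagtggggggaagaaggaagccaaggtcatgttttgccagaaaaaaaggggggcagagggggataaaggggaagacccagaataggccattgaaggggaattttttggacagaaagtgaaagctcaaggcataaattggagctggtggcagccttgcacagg
Il1rl1: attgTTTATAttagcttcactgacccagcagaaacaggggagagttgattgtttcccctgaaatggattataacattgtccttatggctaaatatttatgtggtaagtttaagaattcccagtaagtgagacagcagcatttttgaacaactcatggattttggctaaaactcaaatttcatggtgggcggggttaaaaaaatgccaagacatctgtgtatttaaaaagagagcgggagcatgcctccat
Cx3cl1: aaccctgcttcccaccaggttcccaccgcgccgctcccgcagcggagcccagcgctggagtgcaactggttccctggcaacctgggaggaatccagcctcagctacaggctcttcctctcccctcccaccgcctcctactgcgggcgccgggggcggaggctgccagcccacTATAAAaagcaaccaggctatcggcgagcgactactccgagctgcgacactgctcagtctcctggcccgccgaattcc
Ccl6: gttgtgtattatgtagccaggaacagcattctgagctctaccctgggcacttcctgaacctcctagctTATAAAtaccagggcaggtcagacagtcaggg
Il1b: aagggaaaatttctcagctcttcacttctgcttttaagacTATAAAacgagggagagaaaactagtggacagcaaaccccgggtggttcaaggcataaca

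The motif TATAAA, the core of the element bound by TATA-binding protein, starts 78 bases before the start of Cx3cl1, 60 before that of Il1b and 32 before that of Ccl6. In Il1rl1 it lies on the opposite strand, 246 bases before the start, and in the window of Ccl19 these letters do not occur. On either strand of the 250 bases before the start, TATAAA was found in 13.1% of the 27457 promoters of the table, in 23 of the 88 members with a promoter (26.1%), and in 4 of the 10 genes that rose and had one. TGANTCA, the letters of an AP-1 site, occurred in 6.36% of all promoters, 9 of the 88 members and none of those 10. TTCNNNGAA, the letters of a STAT site, occurred in 7.52% of all promoters, 8 of the 88 members and none of the 10. A motif match is a description of the letters in the window only.

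Chemokine ligands were measured by 30 probes, of which 4 rose (13.3%, beside 4.6% of all probes), none fell (beside 3.15%) and 26 did not pass the call. Ccl19, which guides dendritic cells and lymphocytes through the receptor CCR7, had log2 signals of 5.62, 4.83, 4.77 and 5.48 on the secretory-stage arrays 1 to 4 and of 9.62, 9.66, 10.07 and 9.76 on the maturation-stage arrays 1 to 4. It was detected on 2 secretory-stage arrays and on all 4 maturation-stage arrays, and no values of the stages came near each other. The log2 fold change was 4.60 (SE 0.199, limma adjusted p = 2.95e-07). Before background correction and normalization, the deposited signals were 111 to 128 in the secretory and 1050 to 1194 in the maturation stage.

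Cx3cl1, or fractalkine, is a chemokine made as a membrane protein with its chemokine head on a stalk. Its log2 signals were 7.95, 8.0, 7.84 and 7.93 in the secretory stage and 11.34, 12.05, 12.20 and 11.93 in the maturation stage. The secretory values lay close together and the maturation values well above them, replicate 1 being the lowest. The log2 fold change was 3.95 (SE 0.162, limma adjusted p = 2.12e-07), and the deposited signals ranged from 276 to 305 and from 3381 to 4980.

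Cxcl16, the other chemokine that is made with a membrane anchor, had log2 signals of 6.96, 7.02, 7.09 and 7.14 in the secretory stage and 9.12, 8.35, 8.57 and 8.76 in the maturation stage. The stages did not overlap (log2 fold change 1.64, SE 0.142, limma adjusted p = 2.10e-05). A second probe for Cxcl16 was not detected on any array. Ccl6, a chemokine of macrophages and myeloid cells, had 6.82, 6.31, 6.81 and 6.78 in the secretory stage and 7.64, 7.35, 7.88 and 7.61 in the maturation stage. The difference was 0.94 on the log2 scale (SE 0.141, limma adjusted p = 7.18e-04), with secretory replicate 2 below the other secretory values. Without that array the log2 fold change was 0.82 and the call was lost. It was also lost at 0.84 with normexp without negative controls, at 0.76 with an offset of 50 and at 0.57 without background correction.

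For each of the 15 members called, Il1r2 included, the stages did not overlap. Without overlap, the exact two-sided permutation p over 4 against 4 arrays is always 0.0286, the smallest these numbers allow, so it adds nothing to the limma test.

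**Figure D2:**
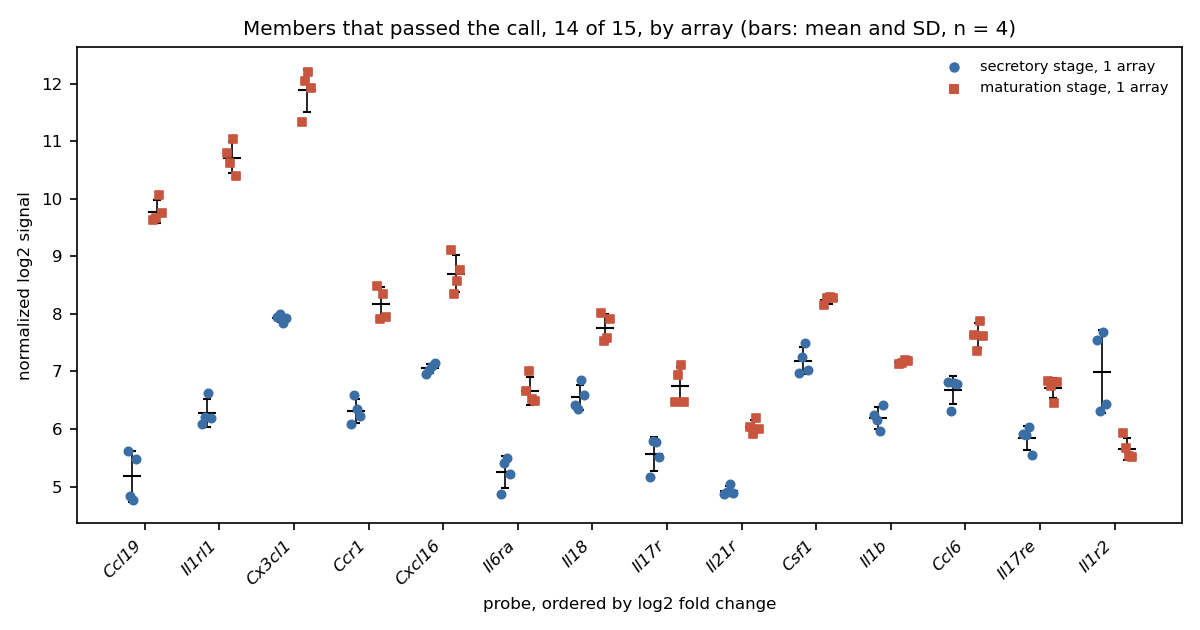
Normalized log2 signal (y axis) of 14 of the 15 called members (x axis, ordered by log2 fold change) on each array, circles for the secretory and squares for the maturation stage, with the mean and SD of the 4 arrays of a stage. Ccl19, Il1rl1 and Cx3cl1 rise by 3.95 to 4.60 on the log2 scale, and Il1r2 at the right end is lower in all 4 maturation-stage arrays.

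The monocyte-attracting ligands of the CCL2 group differed by less than the fold threshold in the reported values. Without normalization between arrays, Ccl2 and Ccl12 were called higher. Ccl2, which attracts monocytes through CCR2, had log2 signals of 5.63, 5.75, 5.74 and 5.75 in the secretory stage and 6.48, 6.41, 6.21 and 6.16 in the maturation stage (log2 fold change 0.60, SE 0.0821, limma adjusted p = 4.23e-04). Ccl12, a relative of Ccl2, was undetected on all 4 secretory-stage arrays and detected on all 4 maturation-stage arrays, where its mean was 5.33 ± 0.22 (SD, n = 4). Against the lowest signal of a detected probe it was at least 1.22-fold higher (limma adjusted p = 1.29e-03). The means of Ccl7 were 5.10 and 5.34 (limma adjusted p = 0.157) and those of Ccl11, an attractant of eosinophils, 5.87 and 6.27 (limma adjusted p = 0.265).

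Several ligands with clear signals did not pass the test. Cxcl12, the stromal ligand of CXCR4, had log2 signals of 11.08, 11.50, 11.39 and 11.16 in the secretory stage and 11.44, 11.13, 11.26 and 11.05 in the maturation stage. The values of the stages were interleaved, with a log2 fold change of -0.06 and a 95% confidence interval of -0.32 to 0.20, which lies within the fold threshold. This holds for the quantile-normalized values: the difference of Cxcl12 turned to 0.19 with median scaling and to 0.39 without normalization (limma adjusted p = 0.241 and 0.0645), and all 4 deposited maturation signals (2589 to 3623) lay above the secretory ones (1896 to 2587). Cxcl4, now Pf4, the platelet chemokine, had 9.78, 11.42, 9.87 and 9.99 against 10.42, 9.66, 10.09 and 9.90 (log2 fold change -0.25, 95% interval -1.02 to 0.52). Secretory replicate 2 stood above the other 7 arrays, and the interval reaches past the fold threshold. Without that array the difference of Cxcl4 turned to 0.14, and without normalization it was 0.26. Ccl5, a chemokine of T cells and platelets, was highest on the same array (6.74, 8.09, 7.34 and 7.37 against 7.42, 6.71, 7.68 and 7.32), with a log2 fold change of -0.10 and an interval of -0.73 to 0.53. It turned to 0.14 without secretory replicate 2, to 0.09 without maturation replicate 2 and to 0.42 without normalization, so neither Cxcl4 nor Ccl5 has a settled direction.

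Ccl27, an epithelial chemokine known from skin, was the other member with an adjusted p below 0.05 and a lower maturation value. Its log2 signals were 6.02, 6.23, 6.05 and 6.07 in the secretory stage and 5.43, 5.59, 5.86 and 5.59 in the maturation stage. The stages did not overlap, and the difference of -0.47 (SE 0.0945, limma adjusted p = 4.15e-03) was below the fold threshold. Without normalization between arrays the difference of Ccl27 was -0.07 and did not pass the test. The epithelial and thymic chemokine Ccl25 was also lower by mean, 5.55 against 5.16, but missed the adjusted p (0.0513). Cxcl1, a neutrophil attractant, had means of 5.22 and 5.51 (limma adjusted p = 0.112), and Cxcl9, induced by interferon-gamma, 5.49 and 5.52 (limma adjusted p = 0.952). The remaining ligands were at the edge of detection. Ccl3, Ccl4, Cxcl11 and Xcl1 were undetected in the secretory stage and detected on 1 or 2 maturation-stage arrays, with limma adjusted p-values of 6.92e-04 to 0.0161. Their maturation means lay below the lowest signals of detected probes in the secretory stage, so no fold is given. Cxcl7, Cxcl10, Ccl17 and Ccl21b were detected on 1 to 5 arrays, and Cxcl2, Cxcl5, Ccl9, Ccl20, Ccl22, Ccl28 and the second probe of Cxcl16 on none.

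Among the chemokine receptors Ccr1 rose, a receptor of monocytes, macrophages and osteoclast precursors for CCL3, CCL5 and related ligands. It had log2 signals of 6.09, 6.59, 6.35 and 6.22 in the secretory stage and 8.49, 7.91, 8.34 and 7.95 in the maturation stage. All 4 maturation values lay above the secretory ones (log2 fold change 1.86, SE 0.152, limma adjusted p = 1.44e-05). Without background correction the difference was 1.16, still called.

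Receptors of the ligands that rose most were not called. Ccr7, the receptor of CCL19, had log2 signals of 7.50, 6.95, 6.78 and 7.39 in the secretory stage and 6.83, 6.80, 6.64 and 6.73 in the maturation stage. It was lower in the maturation sample of all 4 rats, by 0.41 on average, with overlapping stages (limma adjusted p = 0.0813, 95% interval -0.75 to -0.07). With the rat as a block the limma adjusted p was 0.0420, and without normalization between arrays the difference turned to 0.12 (limma adjusted p = 0.618). Cx3cr1, the receptor of CX3CL1 on monocytes and microglia, was detected on 1 array of each stage and has no measured fold. Cxcr4 had means of 8.55 ± 0.18 and 8.78 ± 0.18 (SD, n = 4; limma adjusted p = 0.182). Ccr2, the receptor of CCL2, had means of 5.28 and 5.46 (limma adjusted p = 0.603), and Ccr3, of eosinophils, 5.42 and 5.18 (limma adjusted p = 0.377), a difference that turned to 0.06 without normalization between arrays. Ccr6 and Cxcr3 were detected on all 4 maturation-stage arrays and on 1 and 2 secretory-stage arrays. The means of Ccr6 were 5.0 and 5.37 (limma adjusted p = 0.0954), it was higher in the maturation sample of all 4 rats, and with the rat as a block the limma adjusted p was 0.0169. The means of Cxcr3 were 5.08 and 5.40 (limma adjusted p = 0.183). Ccr4, Ccr1l1 and Il8rb, now Cxcr2, the neutrophil receptor of CXCL1, were not detected on any array, and Il8ra, Ccr8 and Ccr9 were detected on 1 to 3 arrays.

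**Figure D3:**
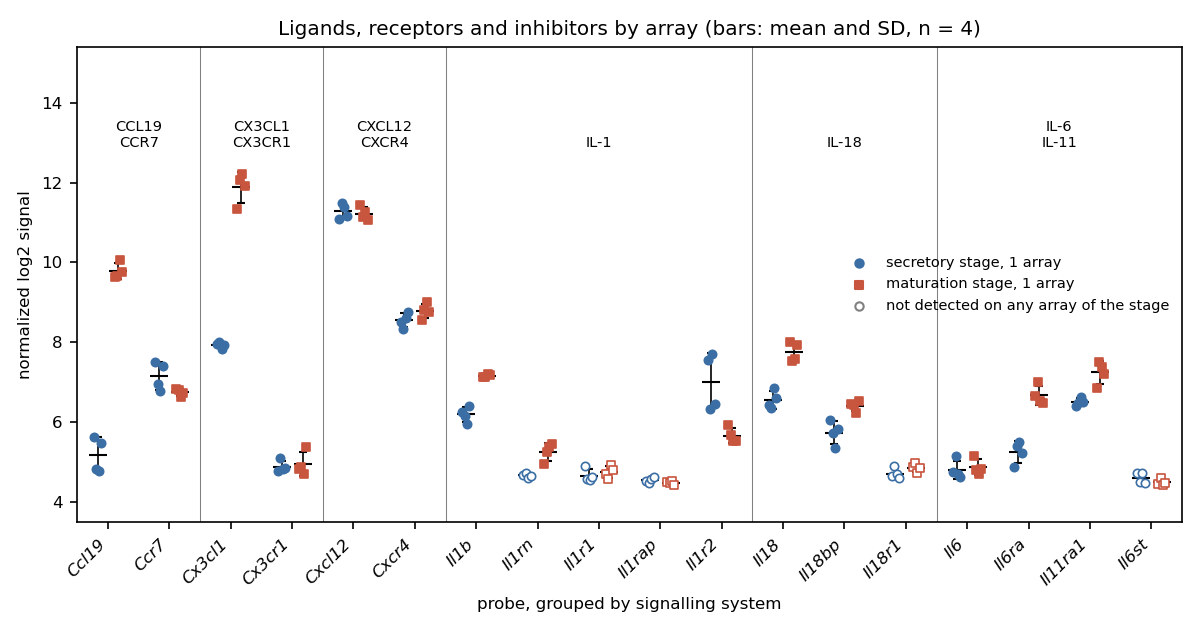
Normalized log2 signal (y axis) on each array of ligands, receptors and inhibitors (x axis) in 6 signalling systems, circles for the secretory and squares for the maturation stage, with the mean and SD of the 4 arrays of a stage; hollow symbols mark a stage in which no array detected the probe. Ccl19 and Cx3cl1 rise beside Ccr7 and Cx3cr1, which were not called, and the signalling receptor chains Il1r1, Il1rap, Il18r1 and Il6st are hollow in both stages.

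The IL-1 family held the largest rise and the single fall among the receptors. Il1rl1 encodes ST2, the receptor of IL-33 on mast cells, type 2 lymphoid cells and regulatory T cells, whose soluble form binds IL-33 as a decoy. Its log2 signals were 6.08, 6.20, 6.63 and 6.19 in the secretory stage and 10.80, 10.63, 11.04 and 10.39 in the maturation stage. The difference between the stages was many times the spread within them (log2 fold change 4.44, SE 0.154, limma adjusted p = 7.97e-08), and the deposited signals were 142 to 172 and 1698 to 2383. The membrane and the soluble form were not told apart here.

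Il1r2, the decoy that binds IL-1 without signalling, had log2 signals of 7.54, 6.31, 7.69 and 6.44 in the secretory stage and 5.93, 5.66, 5.53 and 5.51 in the maturation stage. The secretory values split into a higher pair, replicates 1 and 3, and a lower pair, and all 4 lay above the maturation values. The log2 fold change was -1.34 (SE 0.304, limma adjusted p = 8.44e-03), with the largest SE among the called members. Without background correction the log2 fold change was -0.66 and the call was lost, and without normalization between arrays it was -0.89 and also lost. In the deposited signals the stages overlapped, since maturation replicate 1 (174.9) lay above secretory replicates 2 and 4 (157 and 158).

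Il1b, the ligand held back by that decoy, rose, with log2 signals of 6.25, 6.16, 5.96 and 6.41 in the secretory stage and 7.14, 7.14, 7.19 and 7.19 in the maturation stage. The maturation values were nearly equal and all above the secretory ones (log2 fold change 0.97, SE 0.0896, limma adjusted p = 3.18e-05). Its call was lost with normexp without negative controls (0.84), with an offset of 50 (0.73) and without background correction (0.51). Il1rn, the antagonist that blocks the IL-1 receptor, was undetected in the secretory stage and detected on all 4 maturation-stage arrays (mean 5.25 ± 0.22, SD, n = 4). Its fold was at least 1.15 (limma adjusted p = 1.95e-03). The signalling receptor Il1r1, its partner Il1rap, and the ligand Il1a were not detected on any array.

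Il18, a cytokine stored as a precursor and cleaved by caspase-1, rose from 6.42, 6.34, 6.84 and 6.59 to 8.01, 7.53, 7.58 and 7.92 (log2 fold change 1.21, SE 0.140, limma adjusted p = 1.38e-04), with no overlap. Without background correction the difference of Il18 was 0.74 and the call was lost. Its soluble binding protein, Il18bp, had 6.05, 5.71, 5.35 and 5.82 in the secretory stage and 6.45, 6.43, 6.23 and 6.52 in the maturation stage. The difference of 0.67 (SE 0.136, limma adjusted p = 4.38e-03) was below the fold threshold. With median scaling and without normalization between arrays Il18bp was called. Neither chain of the IL-18 receptor, Il18r1 and Il18rap, was detected on any array. Il1f10, a member of the family that acts as an antagonist in some settings, was undetected in the secretory stage and at 5.46 ± 0.31 (SD, n = 4) in the maturation stage, at least 1.34-fold higher (limma adjusted p = 2.01e-03). Il1f6, Il1f8, Il1rl2 and Il1rapl1 were not detected on any array, and the means of Il1rapl2 were 5.52 and 5.42 (limma adjusted p = 0.738).

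Among the receptors of the IL-17 family, Il17r and Il17re rose. Il17r, now Il17ra, the chain shared by the receptors of this family, had log2 signals of 5.16, 5.80, 5.77 and 5.51 in the secretory stage and 6.47, 6.93, 7.11 and 6.48 in the maturation stage (log2 fold change 1.19, SE 0.184, limma adjusted p = 8.76e-04). The call of Il17r was lost with an offset of 50 (0.80) and without background correction (0.53). Il17re, the epithelial receptor of IL-17C, had 5.91, 5.90, 6.03 and 5.55 against 6.83, 6.76, 6.44 and 6.82 (log2 fold change 0.86, SE 0.120, limma adjusted p = 4.53e-04). Neither gene overlapped between the stages, but Il17re lay just inside the fold threshold. Its call was lost without secretory replicate 4 or without maturation replicate 1, 2 or 4, where the log2 fold change was 0.76 at the lowest. It was also lost with normexp without negative controls (0.71), with an offset of 50 (0.60) and without background correction (0.40). Il17rc, the partner of IL-17RA in binding IL-17A, was measured by 2 probes, both below the fold threshold in the reported values. The brighter probe was called with median scaling and without normalization between arrays. The means of the brighter were 7.30 and 7.89 (log2 fold change 0.59, limma adjusted p = 1.62e-04), and those of the other, detected on 1 secretory-stage array, 4.92 and 5.33 (log2 fold change 0.42, limma adjusted p = 0.0132). Of the 2 probes of Il17rb, 1 was detected on all arrays, with means of 5.60 and 5.56 (limma adjusted p = 0.880). Il17b was the only IL-17 ligand among the members, with means of 6.29 ± 0.24 and 6.82 ± 0.31 (SD, n = 4; log2 fold change 0.53, limma adjusted p = 0.0386) and overlapping stages, maturation replicate 3 lying at 6.36. Within rats Il17b was higher in the maturation sample of all 4, by 0.42 to 0.61 (limma adjusted p = 1.02e-03 with the rat as a block).

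Of the receptors of the IL-6 group, Il6ra, now Il6r, the chain that binds IL-6, rose from 4.87, 5.41, 5.50 and 5.21 to 6.66, 7.01, 6.51 and 6.48. It was detected on 3 secretory-stage arrays, the stages did not overlap, and the log2 fold change was 1.42 (SE 0.157, limma adjusted p = 1.02e-04). Without background correction it was 0.59 and the call was lost. Il11ra1, which binds IL-11, had 6.40, 6.47, 6.63 and 6.50 in the secretory stage and 6.86, 7.51, 7.38 and 7.20 in the maturation stage (log2 fold change 0.74, SE 0.129, limma adjusted p = 1.83e-03). Il6st, which encodes gp130, the signalling chain that both use, was not detected by its probe on any array, Il6 was detected on 1 array of each stage, and Lif on none.

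Il21r, a receptor of lymphocytes that pairs with the common gamma chain and JAK3, had log2 signals of 4.86, 4.90, 5.05 and 4.89 in the secretory stage, where 1 array detected it, and of 6.03, 5.91, 6.19 and 6.01 in the maturation stage. Both sets were narrow and apart (log2 fold change 1.11, SE 0.0745, limma adjusted p = 4.04e-06). As most secretory-stage arrays did not detect it, this fold is set largely against background signal, and the call was lost with an offset of 50 (0.63) and without background correction (0.39). Il2rg, the common gamma chain, had means of 5.12 and 5.15 (limma adjusted p = 0.885). Il2ra was detected on 3 maturation-stage arrays and no secretory-stage array (limma adjusted p = 7.96e-05), and Il4ra, now Il4r, on 1 (limma adjusted p = 0.0156), both too dim there for a fold. Il13ra2, a decoy receptor for IL-13, had means of 8.0 ± 0.32 and 8.59 ± 0.35 (SD, n = 4) and lay at the edge of the adjusted p (0.0499), with overlapping stages. Within rats it was higher in all 4, by 0.43 to 0.89 (limma adjusted p = 2.84e-03 with the rat as a block). The means of Il12rb1 on the brighter of its 2 probes were 5.44 and 5.58 (limma adjusted p = 0.597), and the other probe was not detected on any array. The other interleukin receptors were detected on at most 5 arrays, and Il5ra, Il7r, Il10ra, Il12rb2, Il22ra2 and Il27ra on none.

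Among the remaining interleukins, Il16, a chemoattractant of CD4+ cells, had log2 signals of 5.36, 5.81, 5.38 and 5.48 in the secretory stage and 6.12, 6.12, 6.54 and 6.02 in the maturation stage (log2 fold change 0.70, SE 0.134, limma adjusted p = 3.26e-03). Il15, which sustains NK cells and memory T cells, had means of 7.08 and 7.36 (limma adjusted p = 0.164). Il2, Il3, Il9, Il10, Il12a, Il12b and Il13 were not detected on any array, and Il4, Il5, Il23a and Il24 on 1 to 5.

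Csf1, the growth factor of macrophages and osteoclast precursors, rose, with log2 signals of 6.98, 7.25, 7.49 and 7.02 in the secretory stage and 8.15, 8.27, 8.30 and 8.27 in the maturation stage. The stages did not overlap (log2 fold change 1.06, SE 0.110, limma adjusted p = 6.69e-05). Without background correction the difference of Csf1 was 0.73 and the call was lost. Csf2, Csf3 and the receptor Csf3r were not detected on any array. Of the 7 interferon probes, 6 were not detected on any array, and Ifng was detected on 3 arrays of each stage without passing the test. Both chains of the interferon-gamma receptor were higher in the maturation stage at less than the fold threshold in the reported values. Without normalization between arrays both were called, and with median scaling Ifngr2 was called. Ifngr1 had means of 9.47 ± 0.05 and 9.98 ± 0.13 (log2 fold change 0.51, limma adjusted p = 4.95e-04), and Ifngr2 9.02 ± 0.03 and 9.64 ± 0.11 (SD, n = 4; log2 fold change 0.62, limma adjusted p = 8.76e-05). Ifnar1, a chain of the receptor of interferon-alpha and interferon-beta, was detected on 2 maturation-stage arrays and no secretory-stage array (limma adjusted p = 0.104). Mif, a cytokine kept in many cell types, had log2 signals of 12.89, 12.77, 12.75 and 12.78 in the secretory stage and 13.17, 13.37, 13.25 and 13.39 in the maturation stage. The log2 fold change of Mif was 0.50 (SE 0.0681, limma adjusted p = 4.12e-04). Tnf was detected on 1 maturation-stage array only, and Osm on 2 secretory-stage and 3 maturation-stage arrays.

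Some members lie in gene clusters, where neighbours did not always move together. The change of a neighbour that was not detected is unknown. On chromosome 10, Ccl2, Ccl7, Ccl11 and Ccl12 follow each other and all had higher means in the maturation stage, none past the call. On chromosome 9 of GRCr8, Il1r2, Il1r1, Il1rl2, Il1rl1, Il18r1 and Il18rap follow each other in this order, with 1 other gene between the first 2. Here Il1r2 fell, Il1rl1 rose and the 4 others were not detected on any array. On chromosome 19, Cx3cl1 lies between Ccl17 and Ccl22, of which Ccl17 was detected on 2 secretory-stage and 3 maturation-stage arrays and Ccl22 on none. On chromosome 5, Il11ra1, Ccl27, Ccl19 and Ccl21b lie together, and the log2 fold changes of the first 3 were 0.74, -0.47 and 4.60. On chromosome 8, Ccr1, which rose, stands in a row with Ccr1l1, which was not detected on any array, and with Ccr3 and Ccr2, whose log2 fold changes of -0.23 and 0.18 did not pass the test. On chromosome 4, Il17re and Il17rc adjoin each other, with log2 fold changes of 0.86 and 0.59 (0.42 on the second probe).

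Genes that carry or restrain these signals were taken as a list of 70, of which 62 were on the array. Of these, 5 (Socs5, Tab1, Tab2, Irf9 and Nfkbie) stood under another symbol and were matched by gene ID. The array names the probe matched to Nfkbie Slc35b2, so its assignment is uncertain. The list held 10 genes that rose and 1 that fell (17.7%), beside 7.75% of all probes, and 51 that did not pass the call. By direction, 16.1% rose beside 4.6% of all probes, and 1.61% fell beside 3.15%. The list was also detected more often, 79.0% on all 4 arrays of at least 1 stage beside 46.8% of all probes. The part of detection in these shares was not tested. The median log2 fold change of the list was 0.18. Of the kinases, Jak3, which serves receptors with the common gamma chain, rose from a mean of 8.62 to 10.69 (log2 fold change 2.07, SE 0.100, limma adjusted p = 5.42e-07). Jak2 fell from 10.70 to 9.68 (log2 fold change -1.02, SE 0.0776, limma adjusted p = 9.00e-06), and with median scaling or no normalization its difference, at -0.72 and -0.52, was below the fold threshold. Jak1 was higher by 0.68, below the fold threshold, and the difference of Tyk2 was 0.17 (limma adjusted p = 0.675). Stat3, the factor downstream of IL-6 and related receptors, rose by 1.18 on the log2 scale (SE 0.0886), while Stat5b was higher by 0.76, below the threshold. The largest falls below the threshold were those of Socs6 (-0.71), Traf2 (-0.62) and Irf3 (-0.54). At an adjusted p below 0.05 at any fold, 24 genes of the list were higher (38.7%, beside 12.8% of all probes). In the other direction 9 were lower (14.5%, beside 14.0%).

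Receptors and adaptors of the list were among the genes that rose. Cd74, a receptor of MIF that is better known as the invariant chain of MHC class II, rose from 8.51 to 10.51 (log2 fold change 2.0, SE 0.106). Osmr, the receptor chain of oncostatin M, rose from 5.41 to 7.37 (log2 fold change 1.95, SE 0.116; 1.38 with an offset of 50 and 0.94 without background correction, both called), and Tnfrsf1a, a receptor of TNF, from 9.17 to 10.40 (log2 fold change 1.23, SE 0.0630). Myd88, the adaptor of IL-1 family receptors, rose by 1.25 (SE 0.0780), and Casp1, the protease that activates IL-1 beta and IL-18, by 0.99 (SE 0.139; 0.75 without background correction, where its call was lost). Irf7 rose by 1.41 (0.73 without background correction, where its call was lost). Socs5 and Socs7 rose by 1.31 and 0.88, the call of Socs7 being lost under 7 of the 20 alternatives, among them leaving out secretory replicate 3 or 4 or maturation replicate 2 or 4 (log2 fold change down to 0.79) and omitting background correction (0.45, its lowest). Cmkor1, the atypical receptor that binds CXCL12, had means of 7.91 and 8.55 (log2 fold change 0.64, limma adjusted p = 3.83e-03), below the fold threshold. Lifr was not detected on any array.

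Some markers of other cell types also differed between the stages. Of 17 macrophage and leukocyte markers on the array, 11 rose and none fell, with a median log2 fold change of 0.92. Over all probes 4.6% were called higher and 3.15% lower, and the counts of this and the following lists stand beside these shares. Their summed signal on the normalized linear scale was 5611 to 6936 in the secretory and 13297 to 16730 in the maturation stage. Cd68, for example, had mean log2 signals of 9.03 and 11.22. Ptprc, the leukocyte common antigen, had 4.96 and 5.88 and was detected on only 2 secretory-stage arrays. Of 5 osteoclast markers 3 rose, with sums of 5964 to 8484 and 14724 to 18939, and Calcr was not detected on any array. The part of macrophages and osteoclasts in the rises of Ccr1, Ccl6, Il1b, Cxcl16 and the other members was not tested.

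Of 10 T and NK cell markers 1 rose (Nkg7) and none fell, with sums of 374 to 442 and 483 to 595. Cd3d and Cd8b were not detected on any array. Of 7 neutrophil markers 2 rose (S100a8 and Fcnb), with sums of 194 to 263 and 363 to 672, while S100a9 and Elane, the neutrophil elastase, were undetected. Of 7 mast cell markers Cma1 rose, from undetected to a mean of 7.17, Kit fell, and Tpsab1, Tpsb2 and Fcer1a were undetected, with sums of 272 to 301 and 314 to 441. None of 4 B cell and 5 erythroid markers was called. Of 6 endothelial markers 1 rose, with sums of 4684 to 5799 and 6089 to 7666, and of 9 markers of fibroblasts, odontoblasts and osteoblasts Ibsp rose and Dspp fell, from 10.04 to 4.59, where it was undetected. Their part in the members' changes was not tested either.

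All 15 called members kept their direction under the 20 alternatives run. The rat block, the detection filter, the folds at their bounds and the changes of test or threshold repeat the reported log2 fold changes of these members. Those alternatives could not alter a direction. Only the other background corrections, offset and normalizations and the fits leaving out an array could, and there the size of the difference moved. Among the 7 other ways of processing plotted, the log2 fold change ranged from 2.94 to 4.98 for Ccl19, from 3.39 to 4.90 for Il1rl1 and from 3.53 to 4.44 for Cx3cl1. The calls of Ccl19, Cx3cl1, Cxcl16, Ccr1 and Il1rl1 held under all 20 alternatives, and those of the other called members were lost under 1 to 7 of them. Omitting the fold threshold, which is among the 20, could not lose a call.

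**Figure D4:**
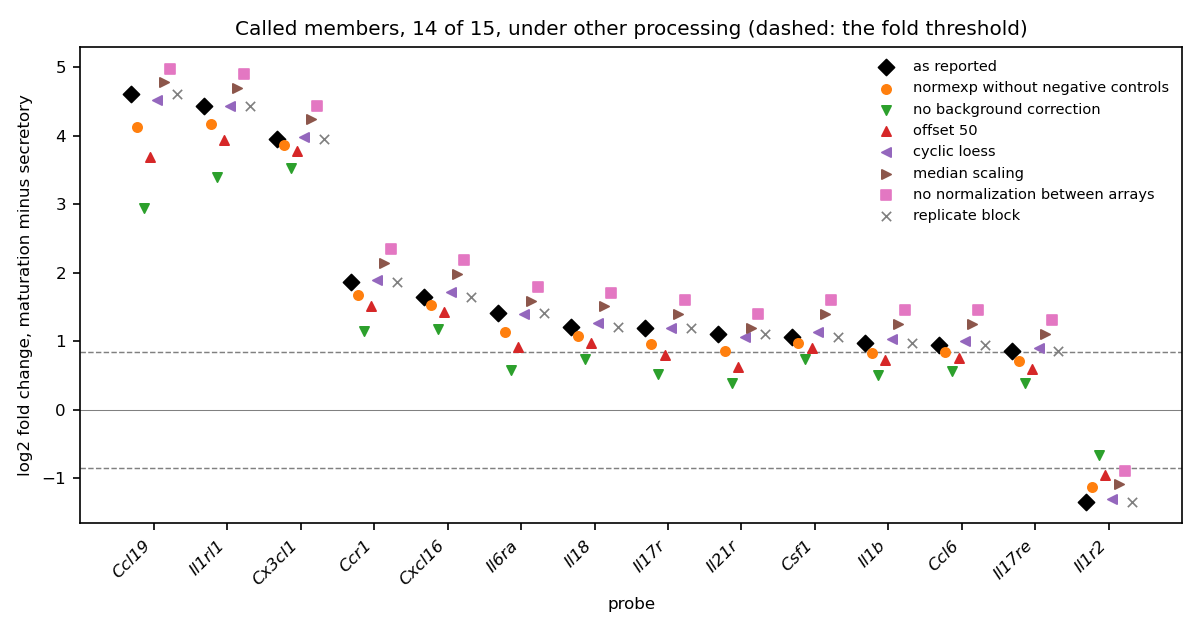
Log2 fold change (maturation minus secretory, y axis) of 14 of the 15 called members (x axis) as reported (diamonds) and under 7 other ways of processing the signals, with dashed lines at the fold threshold. Every point keeps its side of 0, the values are lowest in size without background correction for all 14, and those of the 9 members from Il6ra onward cross the threshold under 1 or more settings.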

How the data were processed

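The enamel organs of 4 rats, secretory and maturation stage apart, were profiled as total RNA on 8 Illumina RatRef-12 v1 arrays. In the table that the authors deposited, each probe has on each array an intensity (the mean of its bead signals, neither background-corrected nor normalized), a detection p-value, a bead standard error and a bead number. The software behind the table and the genome build are not given in the sources used here. Sample titles gave the stage and the replicate.

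The background was corrected by neqc (limma 3.58.1 in R 4.3.3), with negative controls estimated through the detection p-values. An offset of 16 was added and the arrays were quantile-normalized on the log2 scale. No probe was filtered out, and lmFit and eBayes ran over all 22523, with Benjamini-Hochberg adjustment over all of them. Calls required an adjusted p below 0.05 together with a fold of at least 1.8. The methods of the study name a Student test at the same thresholds, which was run as an alternative. Where no array of a stage had a detection p below 0.05, the probe counted as undetected in that stage, and its fold is bounded by the dimmest detected probe on those arrays, or left out where the bound was under 1. The fit was tested on simulated arrays. Exact permutation tests were run with scipy 1.17.1 under Python 3.11.15, and figures drawn with matplotlib 3.10.9.

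The members and the lists of signalling and marker genes were chosen with earlier results of these data known. Every called member is named with its value on each array, except 1 that is not reported here, other members detected on all 4 arrays of a stage with their means, and the rest by detection. Each listed signalling or marker gene was taken by its brightest probe, and the pancreatic elastase that shares the older symbol Ela2 was left out. Current symbols came from the GRCr8 gene table of RefSeq by gene ID, for 119 of the 122 members, of which 13 differ from the array's. Array symbols were kept, and 7 genes have 2 probes.

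Because both samples of a number come from 1 animal, the numbers pair them. Over 11233 probes, residuals around the stage means correlated at 0.129 to 0.234 within a rat and at -0.080 to -0.041, on average, between rats. Residuals cancel out within a stage, so positive values within rats bring negative averages between rats. The between-rat values are therefore not separate evidence of the pairing. The number of arrays limits the precision. Protein sequences were not used here.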

Additional observations from a re-analysis of the deposited data

Results flagged for a closer look

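In 4 of the 95 sets of 4 arrays examined, the array at one end stood far from the other 3 by Dixon's test, where chance gives about 4.75. Ccl6 was at a log2 signal of 6.31 in secretory replicate 2, below the other secretory values of 6.78 to 6.82. Ccl2 was at 5.63 in secretory replicate 1, below 5.74 to 5.75. Cxcl4 was at 11.42 in secretory replicate 2, above 9.78 to 9.99. Il17b was at 6.36 in maturation replicate 3, below 6.92 to 7.01. Groups of this size are flagged by chance at about the rate seen here.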

How the results depend on the processing

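As reported, 14 members were called higher and 1 lower, and 11 genes of the signalling list were called. Beside the 8 fits without 1 array, the 7 alternatives that kept all 3 counts within 1.5 times were normexp without negative controls, cyclic loess, the filter on detection, the Student test, the replicate block, an adjusted p below 0.01 and folds at their bounds. Without background correction, 5 members were called higher and 0 lower, and with an offset of 50, 8 were called higher. Without normalization between arrays, 25 were called higher, 0 lower and 19 of the signalling list. With median scaling, 20 members were called higher, 1 lower and 17 of the signalling list. Members gained with median scaling were Ifngr2, Il11ra1, Il13ra2, Il16, the brighter probe of Il17rc and Il18bp. Without normalization these were gained too, together with Ccl2, Ccl12, Ifngr1, Il17b and Il1f10. Without a fold threshold 34 members were higher, 2 lower and 33 of the signalling list called. In the limma fits with 0 lower, 4 (no background correction) and 1 (no normalization) members were lower at an unadjusted p below 0.05, and the Student test called 1 lower in the reported values. Median scaling moved the calls over all probes from 1035 higher and 710 lower to 1610 and 465, and omitting normalization to 2268 and 332, with the median log2 fold change of all probes at 0.13; the counts without background correction were 528 and 399. Leaving out 1 array at a time gave 13 to 15 members higher, 1 lower in each case, and 10 to 11 of the signalling list. Ccl6 was lost without secretory replicate 2, and Il17re without secretory replicate 4 or maturation replicate 1, 2 or 4; Il11ra1 and Il1f10 were gained without maturation replicate 1. With the rat as a block, the same 15 members were called, and the adjusted p of Ccr6 and Ccr7 passed below 0.05, at 0.0169 and 0.0420. The slide as a block was not run, because the files name no slide. The cause of these shifts was not tested. The number of arrays, and signals near background in members detected on few arrays, limit what could be seen.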
